A study of Saccharomyces cerevisiae and Saccharomyces cerevisiae x Saccharomyces paradoxus with 20 samples.

Results

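The RNA of haploid cells of 2 yeast strains, UWOPS05_217_3 and CBS432, was compared gene by gene. The 4 RNA libraries of these strains, 2 biological replicates each, were chosen by their labels from the 20 samples of the series, which also hold the strain DBVPG1373, 2 hybrids and measurements of chromatin accessibility. UWOPS05_217_3 is a wild isolate of Saccharomyces cerevisiae, and CBS432 is a strain of its sister species S. paradoxus, although the sample labels list it under S. cerevisiae. Both strains were haploid and neither carried a treatment. Each culture was grown in YEPD, a rich medium with glucose, to mid-log phase and divided between RNA and FAIRE, the isolation of DNA that formaldehyde does not crosslink to protein. Each species was represented by 1 strain, so a difference between the strains and a difference between the species cannot be told apart. The tables held 4995 genes counted in both strains, and all of them were compared.

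Laboratory and wild yeasts growing on glucose obtain energy mainly by fermentation and keep genes for respiration of other carbon sources, for storage carbohydrates and for stress resistance low, while genes that build ribosomes are kept high. Haploid yeast cells are of mating type a or alpha, and each type makes its own receptor and pheromone. A diploid made by mating represses both sets together with genes needed only in haploid cells. Biosynthetic pathways for amino acids, purines and vitamins, and the uptake of metals and phosphate, are each switched by their own transcription factors according to supply.

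The total count per library was 78357206 and 94744784 in UWOPS05_217_3 and 51389633 and 106845771 in CBS432, with median counts per gene between 5720 and 11720. A read can have been counted at more than 1 site of a gene, so these totals are not numbers of reads, and levels of different genes also depend on how many sites each gene had. Values are therefore given as CPM, counts scaled to a normalized library total of 1000000, and are compared for the same gene between strains. Replicates differed by a median of 0.13 on the log2 scale in UWOPS05_217_3 and 0.10 in CBS432, against 0.35 for the fitted difference between the strains. Replicates lay more than 1 log2 unit apart for 8 genes in UWOPS05_217_3 and 32 in CBS432, and the latter included several genes of iron and copper uptake. Replicates differed by far more than independent counting would give (chi-square per degree of freedom 157 and 107). Counts at several sites of 1 read are not independent, so this value cannot tell separate cultures from repeated sequencing of 1 library.

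A majority of the genes differed between the strains, mostly by modest amounts. By edgeR's quasi-likelihood test with Benjamini-Hochberg adjustment at 0.05, 2727 of 4995 genes (54.6%) were called. Of these, 1410 (28.2% of all genes) were higher in UWOPS05_217_3 and 1317 (26.4%) higher in CBS432. The median log2 difference of all 4995 genes was 0.01. The median fold of the called genes was 1.5, and 1360 of them differed by less than 1.5-fold. A difference of at least 2-fold was called for 589 genes (11.8%), 318 higher in UWOPS05_217_3 and 271 in CBS432, and 1 of at least 4-fold for 110, 49 and 61 in the same order. RNA was measured in bulk, so that fewer cells expressing a gene and less RNA per cell cannot be told apart. At 16-fold or more there were 4 genes higher in UWOPS05_217_3 and 9 in CBS432. For 3956 genes (79.2%) all 4 pairings of a library of one strain with a library of the other had the same direction, and every called gene was among them. When 1 library was left out, between 2167 and 2588 genes were called, 1779 genes were called in all 4 of these fits, and no gene called with all 4 libraries changed sign.

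**Figure D1:**
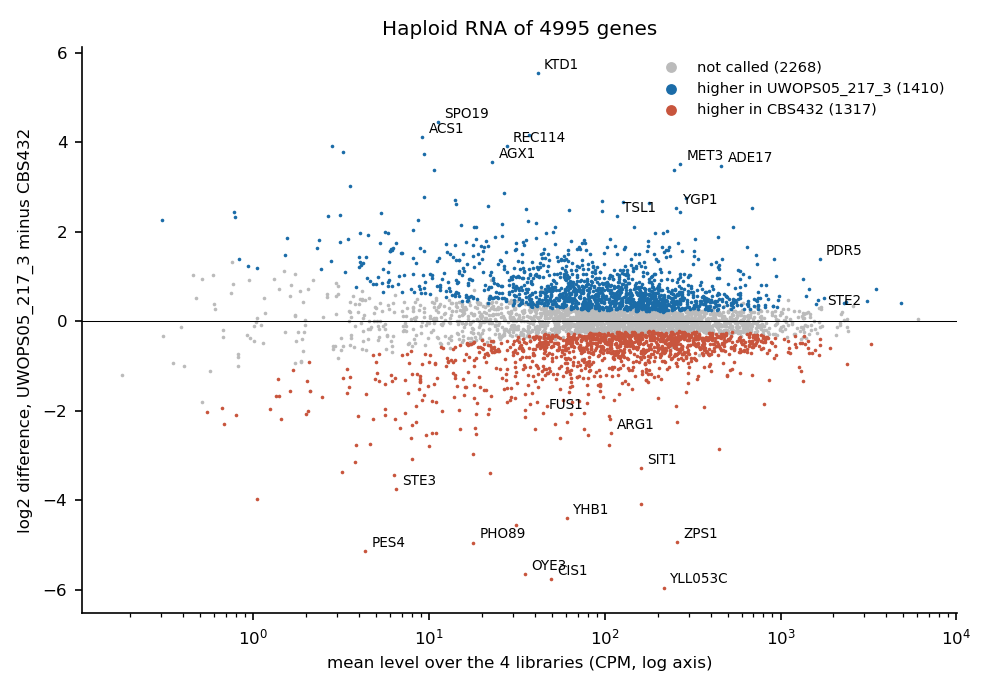
Each point is 1 of 4995 genes, with its mean level over the 4 libraries in CPM (log axis) against the fitted log2 difference, UWOPS05_217_3 minus CBS432; blue and red points are the 1410 and 1317 genes called higher in each strain by edgeR and grey points were not called. The points farthest from 0 are KTD1 at 5.55 and YLL053C at -5.95.

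Among the 12 genes with the largest difference toward UWOPS05_217_3 were genes of acetate and glyoxylate metabolism, a step of sulfate assimilation, a step of purine synthesis and 2 meiotic genes. KTD1, a DUP240 family gene named for defense against killer toxin, stood at 78.0 and 84.9 CPM in UWOPS05_217_3 and 1.34 and 2.03 CPM in CBS432 (46.9-fold, log2 difference 5.55, SE 0.20, adjusted p = 2.5e-06). KTD1 (chromosome I, 184892 to 185596 in the sacCer3 coordinates of the tables) belongs to a family of similar genes, and reads of relatives could not be told apart here. SPO19, which encodes a meiosis-specific protein of the prospore, had 24.7 and 18.1 CPM in UWOPS05_217_3 and 1.11 and 0.883 CPM in CBS432 (log2 difference 4.45, SE 0.27, adjusted p = 1.6e-05). In each of these genes the 2 libraries of UWOPS05_217_3 were close to each other and far above both of CBS432.

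ACS1 encodes the acetyl-CoA synthetase that cells use when glucose is scarce, and it measured 16.9 and 17.7 CPM in UWOPS05_217_3 and 1.05 and 0.949 CPM in CBS432 (17.4-fold, log2 difference 4.12, SE 0.23, adjusted p = 1.2e-05). AGX1, the alanine:glyoxylate aminotransferase that makes glycine, measured 44.1 and 40.5 CPM in UWOPS05_217_3 and 3.32 and 3.81 CPM in CBS432 (log2 difference 3.56, SE 0.17, adjusted p = 4.9e-06). REC114, needed for the DNA breaks that start meiotic recombination, measured 52.0 and 51.5 CPM in UWOPS05_217_3 and 4.46 and 2.51 CPM in CBS432 (log2 difference 3.92, SE 0.26, adjusted p = 2.5e-05). These genes were at low or middle levels in both strains, and their libraries did not overlap between strains, as the choice of genes required.

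MET3, the ATP sulfurylase of sulfate assimilation, and ADE17, which catalyses the last steps of purine synthesis, were the 2 abundant genes of this group. MET3 (chromosome X, 456238 to 457773) was at 518 and 465 CPM in UWOPS05_217_3 and 50.6 and 36.1 CPM in CBS432 (11.4-fold, log2 difference 3.51, SE 0.16, adjusted p = 4.9e-06). ADE17 had 1106 and 584 CPM in UWOPS05_217_3 and 109 and 43.4 CPM in CBS432 (log2 difference 3.47, SE 0.45, adjusted p = 0.00042), with replicate 1 the higher library in both strains. SPS19, a peroxisomal enzyme for unsaturated fatty acids, was at 18.8 and 20.2 CPM in UWOPS05_217_3 and 1.38 and 2.28 CPM in CBS432 (log2 difference 3.38, SE 0.27, adjusted p = 4.6e-05). The other 4 genes were open reading frames with no assigned role: YLR112W (4.16 on the log2 scale), and YER066C-A (3.90), YML122C (3.79) and YNL203C (3.74), which overlap RGI1, a noncoding RNA gene and SPS19. Counting by strand is not stated, so the counts of overlapping genes cannot be told apart.

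Toward CBS432, the 12 largest differences included genes of detoxification, of phosphate, zinc and iron supply and the receptor STE3. YLL053C, next to and overlapping the aquaporin gene AQY2, had 5.39 and 8.32 CPM in UWOPS05_217_3 and 427 and 427 CPM in CBS432 (log2 difference -5.95, SE 0.20, adjusted p = 2.3e-06). CIS1 (chromosome XII, 822287 to 822592) measured 1.9 and 1.69 CPM in UWOPS05_217_3 and 96.3 and 98.9 CPM in CBS432 (54.5-fold, log2 difference -5.77, SE 0.14, adjusted p = 4.5e-07). OYE3, an NADPH oxidoreductase of the old yellow enzyme family, measured 1.17 and 1.55 CPM in UWOPS05_217_3 and 77.3 and 60.6 CPM in CBS432 (log2 difference -5.66, SE 0.21, adjusted p = 2.5e-06). For CIS1 and OYE3 the signal in UWOPS05_217_3 was near 1 or 2 CPM and that in CBS432 above 60 CPM.

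PHO89, a sodium-phosphate cotransporter of the cell surface, stood at 1.19 and 1.05 CPM in UWOPS05_217_3 and 29.6 and 39.6 CPM in CBS432 (log2 difference -4.95, SE 0.23, adjusted p = 4.9e-06). ZPS1, a cell surface protein induced when zinc is short, had 16.1 and 16.4 CPM in UWOPS05_217_3 and 675 and 319 CPM in CBS432 (log2 difference -4.93, SE 0.33, adjusted p = 2.5e-05), with unequal CBS432 libraries. YHB1 encodes the flavohemoglobin that removes nitric oxide and measured 6.15 and 4.8 CPM in UWOPS05_217_3 and 131 and 102 CPM in CBS432 (log2 difference -4.41, SE 0.18, adjusted p = 3e-06). These 3 genes kept their call whichever library was left out.

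The remaining 6 genes were PES4, a poly(A)-binding protein (-5.14), YFR054C (-4.55), YLL056C (-4.08), STE3, RTC2, a vacuolar transporter of basic amino acids (-3.44), and FIT2, a cell wall protein that retains iron siderophores. FIT2 rested on unequal replicates, with 2.93 and 4.81 CPM in UWOPS05_217_3 and 10.2 and 71.3 CPM in CBS432 (log2 difference -3.40, SE 0.76, adjusted p = 0.006).

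**Figure D2:**
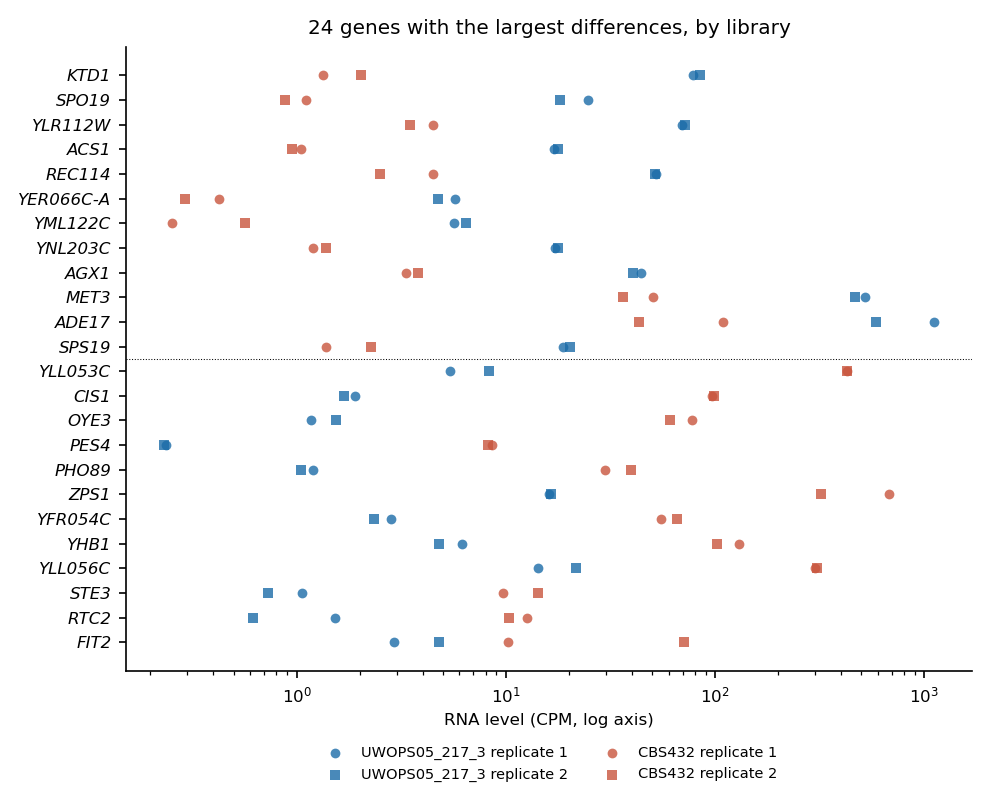
RNA level in CPM (log axis) of the 12 genes with the largest difference toward UWOPS05_217_3 (above the dotted line) and the 12 toward CBS432 (below it); each symbol is 1 library, blue for UWOPS05_217_3 and red for CBS432, circles for replicate 1 and squares for replicate 2. The blue and red symbols are apart in every row, as the choice of genes required, and the replicates of CBS432 are farthest from each other for FIT2, at 10.2 and 71.3 CPM.

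The labels give no mating type, and the genes that mark it were read in both strains. The hybrid of the 2 strains, a diploid, is given beside them over both alleles, without a test, since its tables were scaled apart. STE2, the alpha-factor receptor of a cells, was at 1837 and 1889.8 CPM in UWOPS05_217_3 and 1469 and 1632 CPM in CBS432, while the hybrid had 17.4 and 17.2 CPM. STE6, the exporter of a-factor, was at 711 and 729 CPM in UWOPS05_217_3 and 946 and 923 CPM in CBS432 and at 37.0 and 30.8 CPM in the hybrid. MFA2, 1 of the genes for a-factor itself, was at 371 and 367 CPM in UWOPS05_217_3 and 406 and 288 CPM in CBS432 and at 1.73 and 1.0 CPM in the hybrid. These a-specific genes were thus high in all 4 haploid libraries and low in the diploid, the pattern known of a cells. BAR1, the protease that degrades alpha-factor, went against it, with 296 and 300.1 CPM in UWOPS05_217_3 and 285 and 292 CPM in CBS432 and 319.7 and 307 CPM in the hybrid.

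Of the 3 measured alpha-specific genes, STE3, the a-factor receptor, had 1.06 and 0.732 CPM in UWOPS05_217_3 and 9.72 and 14.3 CPM in CBS432 (log2 difference -3.76, SE 0.32, adjusted p = 6.6e-05), and MF(ALPHA)2, a gene for alpha-factor, had 7.88 and 8.57 CPM in UWOPS05_217_3 and 7.32 and 6.16 CPM in CBS432 (adjusted p = 0.29). SAG1, the alpha-agglutinin of the cell surface, was at 86.7 and 94.2 CPM in UWOPS05_217_3 and 136 and 110.0 CPM in CBS432 and at 91.0 and 86.8 CPM in the hybrid. STE3 was therefore 13.5-fold higher in CBS432 at a level that stayed far under that of STE2 in the same libraries. Levels of different genes also depend on how many sites each had, so the comparison with STE2 is a rough one. Where the alpha-specific counts came from was not tested.

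Across the 6 measured a-specific genes, none was called higher in UWOPS05_217_3 and 3 were called higher in CBS432, the a-factor gene MFA1 (-0.63, SE 0.11), STE6 (-0.38) and ASG7 (-0.53). The calls of STE6 and ASG7 were lost without either CBS432 library and without any of 3 libraries (all but CBS432 replicate 1), respectively, and that of SAG1 without CBS432 replicate 1. STE2 did not pass the test (log2 difference 0.26, adjusted p = 0.081).

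Of 14 haploid-specific and pheromone pathway genes, 4 were called higher in CBS432, a share near the 26.4% over all genes, and 1 in UWOPS05_217_3. FUS1, a membrane protein for cell fusion during mating, was at 16.6 and 17.7 CPM in UWOPS05_217_3 and 73.5 and 69.3 CPM in CBS432 (4.16-fold, log2 difference -2.06, SE 0.12, adjusted p = 1.2e-05). PRM1, another fusion protein, had 19.6 and 24.7 CPM in UWOPS05_217_3 and 52.0 and 50.1 CPM in CBS432 (log2 difference -1.20, SE 0.15, adjusted p = 0.00031), and SST2, which turns the pheromone signal off, had 247 and 205 CPM in UWOPS05_217_3 and 382 and 411 CPM in CBS432 (log2 difference -0.81, SE 0.11, adjusted p = 0.00055). Each of these 3 genes was higher in CBS432. The kinase gene STE7 was also called (-0.37, lost without CBS432 replicate 1).

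NEJ1, which promotes end joining of DNA breaks and is shut off in diploids, was the single member of these 14 genes called higher in UWOPS05_217_3, with 158 and 134 CPM in UWOPS05_217_3 and 49.1 and 53.1 CPM in CBS432 (log2 difference 1.51, SE 0.11, adjusted p = 3.6e-05). In the hybrid it was at 20.6 and 16.3 CPM, and the allele ratios there had the opposite sign, -1.96 and -2.35 on the log2 scale. In the haploids, neither the kinase FUS3 (255 and 297 against 275 and 285 CPM) nor the cell cycle inhibitor FAR1 (768 and 666 against 742 and 749.5 CPM) was called. Haploid-specific genes are known to be repressed in diploids, and FUS3 was at 0.338 and 0.921 CPM in the hybrid. The median log2 difference of the 14 genes was -0.11, and -0.17 without UWOPS05_217_3 replicate 2.

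**Figure D3:**
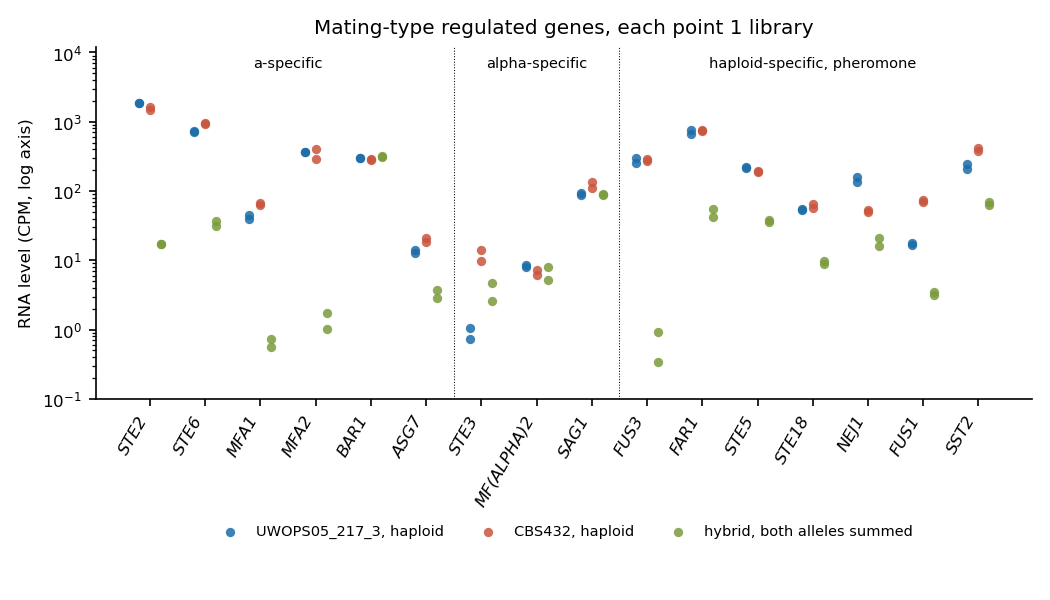
RNA level in CPM (log axis) of a-specific, alpha-specific and haploid-specific or pheromone genes; each point is 1 library of haploid UWOPS05_217_3 (blue), haploid CBS432 (red) or the diploid hybrid with both alleles summed (green). STE2 is above 1000 CPM in all 4 haploid libraries and near 17 CPM in the hybrid, while STE3 is under 15 CPM everywhere.

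Among lists of at least 13 genes, storage carbohydrate genes had the largest share called higher in UWOPS05_217_3. Of 18 measured genes for trehalose and glycogen, 16 were called higher in UWOPS05_217_3 and none higher in CBS432, with a median log2 difference of 0.90. Their summed level was 2765 and 2993 CPM in UWOPS05_217_3 and 1514 and 1396 CPM in CBS432. TSL1, a subunit of trehalose synthase, measured 185 and 207 CPM in UWOPS05_217_3 and 38.7 and 38.0 CPM in CBS432 (5.1-fold, log2 difference 2.35, SE 0.10, adjusted p = 3.7e-06). GSY2, the main glycogen synthase, measured 92.5 and 77.1 CPM in UWOPS05_217_3 and 21.9 and 17.5 CPM in CBS432 (log2 difference 2.11, SE 0.15, adjusted p = 3.2e-05). Between 15 and 17 of the genes were called with any 1 library left out.

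Genes of the general stress response, which share many regulators with storage carbohydrates, were called higher in UWOPS05_217_3 for 14 of 26 members and higher in CBS432 for 5 (median 0.43). These shares were 53.8% and 19.2%, beside 28.2% and 26.4% over all genes. GAD1, a glutamate decarboxylase of oxidative stress tolerance, was at 121 and 90.6 CPM in UWOPS05_217_3 and 20.1 and 17.6 CPM in CBS432 (log2 difference 2.49, SE 0.16, adjusted p = 2e-05), and GPX1, a glutathione peroxidase, at 8.63 and 9.27 CPM in UWOPS05_217_3 and 2.1 and 2.37 CPM in CBS432 (log2 difference 2.00, SE 0.24, adjusted p = 0.00032). The group was not uniform: OYE3, described above, and the abundant peroxiredoxin AHP1 (970.4 and 1235 against 1820.2 and 1809.5 CPM, log2 difference -0.72) were higher in CBS432.

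Heat shock genes had no common direction. Of 19, 4 (21.1%) were called higher in UWOPS05_217_3 and 6 (31.6%) in CBS432, near the 28.2% and 26.4% over all genes. HSP12, a membrane-protecting stress protein, was higher in UWOPS05_217_3 (29.2 and 20.5 against 4.21 and 6.86 CPM, log2 difference 2.15, SE 0.28, adjusted p = 0.00042), as was the Hsp70 gene SSA3 (1.07). Its paralog SSA4 was higher in CBS432 (52.5 and 49.8 against 125 and 149 CPM, log2 difference -1.42, SE 0.11, adjusted p = 4.4e-05), as was the small heat shock gene HSP26 (-1.28). Members of one chaperone family thus differed in opposite directions.

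The glucose-phosphorylating enzymes HXK1 and GLK1 were both higher in UWOPS05_217_3, at 395 and 330.1 against 100.0 and 79.7 CPM (log2 difference 2.01, SE 0.13, adjusted p = 2.5e-05) and at 241 and 299 against 82.6 and 84.3 CPM (log2 difference 1.69, SE 0.11, adjusted p = 2.6e-05). In glycolysis and fermentation, 3 of 15 measured genes (20.0%) were called in each direction, beside 28.2% and 26.4% over all genes. The abundant phosphoglycerate mutase GPM1 was not called (2489 and 2127 against 2619 and 1902 CPM, adjusted p = 0.89). GPD1, which makes glycerol under osmotic stress, was at 743 and 1220.3 against 286 and 335 CPM (log2 difference 1.66, SE 0.21, adjusted p = 0.00042), and the glycerol kinase GUT1 at 104 and 115 against 35.7 and 35.8 CPM (log2 difference 1.61, SE 0.10, adjusted p = 2e-05). They were among 6 of 11 glycerol and osmotic genes called higher in UWOPS05_217_3, against 1 in CBS432, the dihydroxyacetone kinase DAK2 (-1.18). AQY1, a water channel of the membrane, was also higher in UWOPS05_217_3 (14.4 and 18.5 against 1.61 and 3.08 CPM, log2 difference 2.78, SE 0.32, adjusted p = 0.00025).

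Most genes of purine synthesis were higher in UWOPS05_217_3. Of 15 genes, 9 were called higher in UWOPS05_217_3 and 3 in CBS432, and the median log2 difference was 0.84. Beside ADE17, the genes higher in UWOPS05_217_3 included ADE1, ADE2, ADE3, ADE4, ADE8, ADE12 and ADE13, with log2 differences from 0.77 to 1.57 and named after their values were seen. ADE16, the paralog of ADE17, was not called (606 and 618 against 670.2 and 705 CPM, adjusted p = 0.16). MTD1, which supplies one-carbon units on folate, was at 206 and 125 CPM in UWOPS05_217_3 and 34.1 and 17.9 CPM in CBS432 (log2 difference 2.68, SE 0.32, adjusted p = 0.0003). In ADE17 and MTD1 replicate 1 was the higher library of each strain. SHM2, the cytosolic serine hydroxymethyltransferase that also feeds one-carbon units, showed 609 and 409 CPM in UWOPS05_217_3 and 178 and 107 CPM in CBS432 (log2 difference 1.84, SE 0.25, adjusted p = 0.00057) with the same order of replicates.

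The 3 purine genes higher in CBS432 were the adenine deaminase AAH1 (417 and 438 against 616 and 710.2 CPM, log2 difference -0.63), the GMP synthase GUA1 (-0.43) and the adenine phosphoribosyltransferase APT1 (-0.36, named after its values were seen). Without UWOPS05_217_3 replicate 1 or without CBS432 replicate 2, 1 of these 3 was called.

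Of 24 genes of sulfate assimilation and methionine synthesis, 12 (50.0%) were called higher in UWOPS05_217_3 and 7 (29.2%) in CBS432 (median 0.31). The share toward CBS432 was near the 26.4% over all genes, and that over all genes toward UWOPS05_217_3 was 28.2%. MET17, which makes homocysteine from sulfide, had 935 and 815 CPM in UWOPS05_217_3 and 235 and 171 CPM in CBS432 (log2 difference 2.11, SE 0.16, adjusted p = 3.8e-05). MET10, a subunit of sulfite reductase, had 379 and 303 CPM in UWOPS05_217_3 and 96.4 and 77.0 CPM in CBS432 (log2 difference 1.98, SE 0.14, adjusted p = 3.2e-05). Next to MET3 these were the largest of the group toward UWOPS05_217_3.

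The 2 sulfate permeases had opposite directions, SUL2 higher in UWOPS05_217_3 (0.98, named after its values were seen) and SUL1 higher in CBS432 (12.7 and 13.7 against 43.7 and 45.9 CPM, log2 difference -1.76, SE 0.14, adjusted p = 4.2e-05). Also higher in CBS432 were HOM3 (-0.88) and HOM2 (-0.56), the first steps from aspartate, named in the same way, and STR3, a cystathionine beta-lyase, with 6.1 and 5.86 against 22.6 and 24.6 CPM (log2 difference -1.98, SE 0.17, adjusted p = 7.1e-05). MET30, an F-box protein that represses the sulfur genes, was the single one of 5 measured sulfur regulators called, and it was higher in CBS432 (119.6 and 123 against 201 and 197 CPM, log2 difference -0.71, SE 0.08, adjusted p = 0.00024). The activators GCN4 (2197 and 2307 against 2430.4 and 2782 CPM, adjusted p = 0.18) and CBF1 (79.6 and 65.7 against 70.2 and 70.6 CPM, adjusted p = 0.76) did not pass the test, nor did the other measured factors that the study named by their motifs, SPT2 (adjusted p = 0.16), TEA1 (adjusted p = 0.084) and RGT1 (adjusted p = 0.99).

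Carbon use outside glycolysis gave both directions, where 28.2% of all genes were called higher in UWOPS05_217_3 and 26.4% in CBS432. In the TCA and glyoxylate cycles 11 of 20 genes were higher in UWOPS05_217_3 (median 0.37), led by the peroxisomal malate dehydrogenase MDH3 at 268 and 277 CPM in UWOPS05_217_3 and 83.0 and 73.8 CPM in CBS432 (log2 difference 1.80, SE 0.09, adjusted p = 7.3e-06) and the mitochondrial citrate synthase CIT3 (1.57). The isocitrate dehydrogenase IDP2 (7.81 and 8.59 against 19.9 and 38.3 CPM, log2 difference -1.83, SE 0.29, adjusted p = 0.0011) and the malate synthase MLS1 (5.33 and 4.45 against 6.33 and 27.8 CPM, log2 difference -1.81) were among 3 higher in CBS432. MLS1 was high in CBS432 replicate 2 alone, and without that library 1 gene of the list was called higher in CBS432.

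ADY2, an acetate transporter, was higher in UWOPS05_217_3 as ACS1 was (6.68 and 5.85 against 0.99 and 0.607 CPM, log2 difference 3.01, SE 0.34, adjusted p = 0.00024). PCK1, the first committed enzyme of gluconeogenesis, was higher in CBS432 with unequal replicates (7.89 and 6.32 against 15.1 and 44.8 CPM, log2 difference -2.08, SE 0.43, adjusted p = 0.0044), and so was the carnitine acetyltransferase YAT1 (8.57 and 8.67 against 20.8 and 27.0 CPM, log2 difference -1.47, SE 0.19, adjusted p = 0.0004). Genes of peroxisomes and fatty acid breakdown were called higher in UWOPS05_217_3 for 12 of 25 (48.0%) and in CBS432 for 5 (20.0%), with a median of 0.38. The shares over all genes were 28.2% and 26.4%. Among the called genes were the fatty acid importer PXA2 (2.11) and, toward CBS432, the acyl-CoA synthetase FAA2 (-1.07).

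Genes of the vacuole were more often higher in UWOPS05_217_3 than in CBS432. Of 20 genes for autophagy and vacuolar proteases, 12 were called higher in UWOPS05_217_3 and 2 in CBS432 (median 0.54). PRC1, carboxypeptidase Y, was at 572 and 660.0 CPM in UWOPS05_217_3 and 250.3 and 241 CPM in CBS432 (log2 difference 1.33, SE 0.10, adjusted p = 4.4e-05), whereas proteinase B, encoded by PRB1, was higher in CBS432 (222 and 243 against 391 and 431 CPM, log2 difference -0.82, SE 0.10, adjusted p = 0.00028). Of 14 genes of the proton pump that acidifies the vacuole, 8 were called higher in UWOPS05_217_3 and none in CBS432 (median 0.30), but 4 were called without CBS432 replicate 1.

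Fatty acid and phospholipid synthesis had 13 of 24 genes called higher in UWOPS05_217_3 and 2 in CBS432 (median 0.41). The 2 methyltransferases that turn phosphatidylethanolamine into phosphatidylcholine had opposite directions. OPI3 was higher in UWOPS05_217_3 (151 and 247 against 59.5 and 66.4 CPM, log2 difference 1.66, SE 0.21, adjusted p = 0.00035) and CHO2 in CBS432 (406 and 580.5 against 1251 and 1198 CPM, log2 difference -1.31, SE 0.16, adjusted p = 0.00037). ELO1, a fatty acid elongase, was at 301 and 374 against 109 and 114 CPM (log2 difference 1.60, SE 0.11, adjusted p = 3.2e-05).

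**Figure D4:**
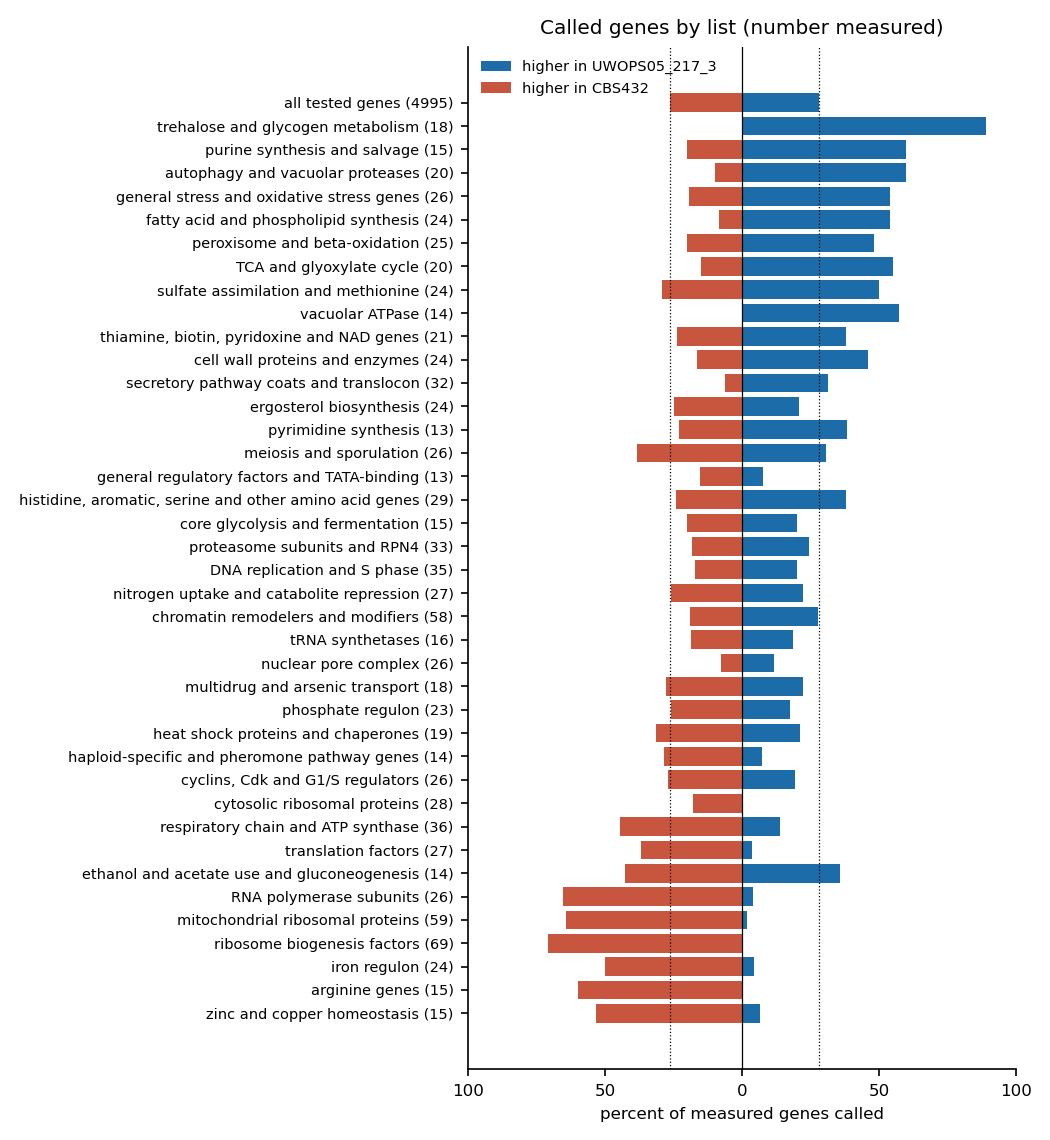
Percent of the measured genes of each list (number in brackets, lists of at least 13 genes) that edgeR called higher in UWOPS05_217_3 (blue, to the right) or higher in CBS432 (red, to the left), ordered by the median log2 difference, with all 4995 genes on top; the dotted lines mark 28.2% and 26.4%, the shares over all genes. Trehalose and glycogen genes reach farthest to the right and ribosome biogenesis factors farthest to the left, and neither has a called gene on the other side.

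Among the same lists, the genes that build ribosomes had the largest share called higher in CBS432, although mitochondrial ribosomal proteins, with 34 of 59, had a larger one than their 35 of 69 without CBS432 replicate 2. All 69 measured ribosome biogenesis factors had a fitted difference below 0, 49 of them were called higher in CBS432 and none higher in UWOPS05_217_3. The differences were small, with a median of -0.43 on the log2 scale and 1 called gene above 2-fold. Their summed level was 40376 and 37479 CPM in UWOPS05_217_3 and 50421 and 53884 CPM in CBS432. With each library left out in turn, between 35 and 52 were called higher in CBS432.

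REX4, a putative exonuclease of ribosomal RNA processing, measured 204 and 193 CPM in UWOPS05_217_3 and 381 and 423 CPM in CBS432 (log2 difference -1.02, SE 0.09, adjusted p = 8.9e-05). NSR1, a nucleolar protein for ribosomal RNA maturation, had 1553 and 1684 CPM in UWOPS05_217_3 and 2851 and 3409 CPM in CBS432 (log2 difference -0.95, SE 0.13, adjusted p = 0.00065). Both overlap another open reading frame in part. Subunits of the RNA polymerases went the same way, with 17 of 26 called higher in CBS432 (median -0.35), including RPA14 of RNA polymerase I (-0.74), and 1 higher in UWOPS05_217_3, the shared subunit RPB8 (238 and 279 against 153 and 164 CPM, log2 difference 0.71, SE 0.10, adjusted p = 0.00066).

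Cytosolic ribosomal proteins were mostly outside the tables, with 28 of 137 measured. Of these, 5 were called higher in CBS432 and none in UWOPS05_217_3 (median -0.13, -0.08 without CBS432 replicate 1), the largest being RPL6B at 384 and 478 CPM in UWOPS05_217_3 and 598 and 722 CPM in CBS432 (log2 difference -0.61, SE 0.14, adjusted p = 0.0061). That share was below the 26.4% over all genes. Translation factors had 10 of 27 genes called higher in CBS432, which dropped to 3 without CBS432 replicate 2, and 1 higher in UWOPS05_217_3, the elongation factor gene HEF3 (29.8 and 35.4 against 9.63 and 9.17 CPM, log2 difference 1.79, SE 0.16, adjusted p = 8.6e-05).

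Mitochondrial ribosomal proteins were called higher in CBS432 for 38 of 59 genes and higher in UWOPS05_217_3 for 1 (median -0.38). MRPS5, of the small subunit, was at 93.5 and 83.7 CPM in UWOPS05_217_3 and 209 and 207 CPM in CBS432 (log2 difference -1.23, SE 0.09, adjusted p = 3.7e-05), and MRPL28, of the large subunit, at 67.7 and 63.8 CPM in UWOPS05_217_3 and 159.8 and 148 CPM in CBS432 (log2 difference -1.23, SE 0.10, adjusted p = 4.3e-05). The exception was MRPL38 (0.28), whose call was lost without any of 3 libraries (all but UWOPS05_217_3 replicate 1).

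The respiratory chain and ATP synthase had 16 of 36 genes higher in CBS432 and 5 higher in UWOPS05_217_3 (3 without UWOPS05_217_3 replicate 1 or either CBS432 library). COX5B, the low-oxygen isoform of a cytochrome oxidase subunit, was higher in CBS432 (2.12 and 2.28 against 11.8 and 11.3 CPM, log2 difference -2.39, SE 0.23, adjusted p = 0.0001). CYC7, the low-oxygen isoform of cytochrome c, was higher in UWOPS05_217_3 (19.5 and 17.5 against 9.88 and 9.71 CPM, log2 difference 0.92, SE 0.17, adjusted p = 0.0025). SDH2, a subunit of succinate dehydrogenase, was also higher in UWOPS05_217_3 (0.78). The 2 low-oxygen isoforms thus had opposite directions.

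Arginine genes were called higher in CBS432 for 9 of 15 and higher in UWOPS05_217_3 for none (median -0.64; 2 were called higher in UWOPS05_217_3 without CBS432 replicate 2). ARG1, argininosuccinate synthetase, had 34.9 and 29.9 CPM in UWOPS05_217_3 and 239 and 130.3 CPM in CBS432 (5.69-fold, log2 difference -2.51, SE 0.25, adjusted p = 0.00013), and ARG3, ornithine carbamoyltransferase, had 29.2 and 19.5 CPM in UWOPS05_217_3 and 177 and 79.6 CPM in CBS432 (log2 difference -2.40, SE 0.35, adjusted p = 0.00075). Replicate 1 of CBS432 was well above its replicate 2 in both genes, and each still lay far above UWOPS05_217_3. Of 7 lysine genes, 4 were called higher in UWOPS05_217_3 and 1 in CBS432, beside 28.2% and 26.4% over all genes. Their median was 0.27, and 0.16 without UWOPS05_217_3 replicate 2. LYS2, the alpha-aminoadipate reductase, had the largest difference toward UWOPS05_217_3 (209.6 and 196 against 80.5 and 75.1 CPM, log2 difference 1.38, SE 0.09, adjusted p = 2.5e-05). LYS5 was higher in CBS432 (32.7 and 37.2 against 57.9 and 60.7 CPM, log2 difference -0.76, SE 0.12, adjusted p = 0.00094).

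ARO9, an aromatic aminotransferase that degrades tryptophan, had 1076 and 1260.4 CPM in UWOPS05_217_3 and 147 and 256 CPM in CBS432 (log2 difference 2.53, SE 0.24, adjusted p = 0.0001). The branched-chain aminotransferases were split between the strains, the mitochondrial BAT1 higher in CBS432 (357 and 403 against 775 and 647 CPM, log2 difference -0.90, SE 0.12, adjusted p = 0.00051) and the cytosolic BAT2 higher in UWOPS05_217_3 (250.2 and 340.1 against 209 and 199 CPM, log2 difference 0.53, SE 0.14, adjusted p = 0.011). Of 27 nitrogen uptake genes, 6 (22.2%) and 7 (25.9%) were called in the 2 directions, near the 28.2% and 26.4% over all genes. The ammonium transporter MEP1 (1.30) and the urea transporter DUR3 (-1.61) were at the extremes.

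The iron regulon, genes switched on by Aft1 when iron is short, was higher in CBS432 for 12 of 24 genes (median -0.43, -0.28 without CBS432 replicate 2), and here the CBS432 cultures differed from each other. SIT1, a siderophore transporter, had 24.3 and 35.5 CPM in UWOPS05_217_3 and 149.5 and 429.9 CPM in CBS432 (log2 difference -3.27, SE 0.44, adjusted p = 0.00052). Over all 24 genes the median difference between the replicates of CBS432 was 0.43 on the log2 scale, against 0.18 for UWOPS05_217_3, and their summed level was 2849.8 and 2904 CPM in UWOPS05_217_3 and 3531 and 5685 CPM in CBS432. Both CBS432 libraries exceeded both of UWOPS05_217_3 in that sum. With 1 library left out, 10 to 14 genes were called higher in CBS432, and 3 were called higher in UWOPS05_217_3 without CBS432 replicate 2.

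FET4, a low-affinity transporter of iron and other metals, was the iron list's single gene higher in UWOPS05_217_3, at 43.2 and 90.7 CPM in UWOPS05_217_3 and 12.3 and 17.0 CPM in CBS432 (log2 difference 2.19, SE 0.32, adjusted p = 0.0008). Zinc and copper genes were higher in CBS432 for 8 of 15 (median -0.65, but -0.29 without CBS432 replicate 2 and -0.38 without UWOPS05_217_3 replicate 1), led by ZPS1 and MSC2, a zinc transporter of the endoplasmic reticulum (119 and 129 against 237 and 232 CPM, log2 difference -0.92, SE 0.09, adjusted p = 9.4e-05). IZH1, a membrane protein of zinc homeostasis, was higher in UWOPS05_217_3 (0.94).

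For phosphate, 4 of 23 genes (17.4%) were called higher in UWOPS05_217_3 and 6 (26.1%) in CBS432, beside 28.2% and 26.4% over all genes. PHO89 had the largest difference. Without UWOPS05_217_3 replicate 1 the counts were 6 and 6, and the median of -0.11 became -0.17 without UWOPS05_217_3 replicate 2 and -0.01 without CBS432 replicate 2. GIT1, which imports glycerophosphoinositol, was higher in CBS432 as PHO89 was (3.48 and 1.85 against 13.8 and 12.8 CPM, log2 difference -2.32, SE 0.31, adjusted p = 0.00053), and the vacuolar alkaline phosphatase PHO8 was higher in UWOPS05_217_3 (189 and 234 against 123 and 133 CPM, log2 difference 0.72, SE 0.11, adjusted p = 0.0011).

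Of 8 measured galactose genes, 3 were called higher in UWOPS05_217_3 and 4 in CBS432 (2 in UWOPS05_217_3 without either CBS432 library). The shares over all genes were 28.2% and 26.4%. GAL1, galactokinase, had 12.9 and 15.8 CPM in UWOPS05_217_3 and 46.0 and 48.9 CPM in CBS432 (log2 difference -1.72, SE 0.15, adjusted p = 7.1e-05), and GAL7, the uridylyltransferase of the next step, had 2.88 and 3.0 CPM in UWOPS05_217_3 and 14.6 and 13.3 CPM in CBS432 (log2 difference -2.24, SE 0.21, adjusted p = 0.0001). The repressor GAL80 was higher in UWOPS05_217_3 (70.2 and 76.6 against 45.1 and 45.6 CPM, log2 difference 0.69, SE 0.10, adjusted p = 0.00078). PGM2, a phosphoglucomutase that also serves glycogen and trehalose synthesis, was higher in UWOPS05_217_3 as well (80.1 and 71.5 against 54.5 and 51.6 CPM, log2 difference 0.52, SE 0.10, adjusted p = 0.0039). GAL1 is covered by an annotated noncoding RNA gene, so the source of its counts cannot be told apart.

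Of the 24 listed hexose transporters and glucose sensing genes, 9 were measured. Of these 9, 2 (22.2%) were called higher in UWOPS05_217_3 and 4 (44.4%) in CBS432, beside 28.2% and 26.4% over all genes. The glucose repressor MIG3 (15.5 and 17.2 against 50.3 and 66.7 CPM, log2 difference -1.84, SE 0.16, adjusted p = 7.7e-05) and HXT5, a hexose transporter of slow growth (14.8 and 13.0 against 43.5 and 46.1 CPM, log2 difference -1.69, SE 0.14, adjusted p = 6.1e-05), were higher in CBS432. The genes higher in UWOPS05_217_3 were MTH1, a repressor of hexose transporter genes (61.4 and 45.2 against 41.2 and 33.9 CPM, log2 difference 0.51, SE 0.17, adjusted p = 0.033), and the glucose sensor SNF3 (67.1 and 61.2 against 54.1 and 48.6 CPM, log2 difference 0.32, SE 0.11, adjusted p = 0.037), and neither was called without UWOPS05_217_3 replicate 1 or CBS432 replicate 2. Without CBS432 replicate 1, 1 gene of the list was called in that direction.

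Meiotic genes, which are kept off in mitotic cells, were mostly at low levels and differed in both directions, with 8 of 26 higher in UWOPS05_217_3 and 10 in CBS432, 12 of these 18 by at least 2-fold. The shares over all genes were 28.2% and 26.4%, and without UWOPS05_217_3 replicate 2 the count in UWOPS05_217_3 was 5. NDT80, the activator of middle meiotic genes, was at 23.1 and 23.2 CPM in UWOPS05_217_3 and 10.3 and 6.09 CPM in CBS432 (log2 difference 1.51, SE 0.25, adjusted p = 0.0014), below REC114 in size of difference. DIT1, a spore wall enzyme, had 2.24 and 2.39 CPM in UWOPS05_217_3 and 9.8 and 11.1 CPM in CBS432 (log2 difference -2.18, SE 0.23, adjusted p = 0.00018), and SPO20, a fusion protein of the forming spore membrane, had 2.98 and 2.7 CPM in UWOPS05_217_3 and 11.5 and 12.1 CPM in CBS432 (log2 difference -2.06, SE 0.22, adjusted p = 0.00018). These 2 were higher in CBS432.

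At the cell surface, YGP1, a secreted glycoprotein induced on nutrient limitation, had 408 and 462 CPM in UWOPS05_217_3 and 69.4 and 82.1 CPM in CBS432 (5.74-fold, log2 difference 2.52, SE 0.12, adjusted p = 4.7e-06). PST1, a cell wall protein induced by wall damage, had 85.9 and 92.2 CPM in UWOPS05_217_3 and 419 and 430.0 CPM in CBS432 (log2 difference -2.25, SE 0.09, adjusted p = 2.9e-06). DSE1, a daughter cell protein, was also higher in CBS432 (13.5 and 7.93 against 34.4 and 33.8 CPM, log2 difference -1.67, SE 0.24, adjusted p = 0.00074). Among all genes, 28.2% were called higher in UWOPS05_217_3 and 26.4% in CBS432. The cell wall list had 11 (45.8%) and 4 (16.7%) of 24 genes called in these 2 directions. Its median log2 difference was 0.21, and 0.12 without UWOPS05_217_3 replicate 2.

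PDR5, the main multidrug exporter, was an abundant gene with a large difference, at 2374 and 2474 CPM in UWOPS05_217_3 and 927 and 914 CPM in CBS432 (log2 difference 1.40, SE 0.11, adjusted p = 4.4e-05), and its relative PDR10 was also higher in UWOPS05_217_3 (0.74). The polyamine exporter TPO4 was higher in CBS432 (44.6 and 40.8 against 94.5 and 105 CPM, log2 difference -1.23, SE 0.11, adjusted p = 6.8e-05). Of the pyrimidine genes, URA3 was at 246 and 251 against 129 and 132 CPM (log2 difference 0.93, SE 0.08, adjusted p = 6.6e-05) and URA4 at 239.8 and 232 against 111 and 112 CPM (1.08), both higher in UWOPS05_217_3, while the CTP synthase URA7 was higher in CBS432 (-0.70).

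Calls in several core machineries were below the 54.6% over all genes, and no difference from that share was tested. Chromatin remodelers and modifiers had 27 of 58 called, 16 higher in UWOPS05_217_3 and 11 in CBS432, none by 2-fold, and 9 and 6 without CBS432 replicate 2 and 11 and 7 without CBS432 replicate 1. Among them were the silencing deacetylase SIR2, with 55.7 and 54.8 against 108 and 103 CPM (log2 difference -0.93, SE 0.09, adjusted p = 0.00012) and IOC3, a subunit of an Isw1 complex (0.60). General regulatory factors had 3 of 13 called, TBF1 (-0.62), ABF1 (-0.43) and GCR2 (0.36, lost without CBS432 replicate 1), and the nuclear pore had 5 of 26 (3 without either CBS432 library, 8 without UWOPS05_217_3 replicate 2). Proteasome genes had 14 of 33 called, 8 higher in UWOPS05_217_3 and 6 in CBS432 (5 and 2 without CBS432 replicate 1, 4 and 6 without CBS432 replicate 2), including their activator RPN4, higher in CBS432 (128 and 139.9 against 224 and 195 CPM, log2 difference -0.64, SE 0.10, adjusted p = 0.00098).

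In the cell cycle, PCL5, a cyclin that targets Gcn4 for breakdown, was at 125 and 166 CPM in UWOPS05_217_3 and 454 and 414 CPM in CBS432 (log2 difference -1.58, SE 0.14, adjusted p = 7.1e-05), and the G1 cyclin CLN3 at 158 and 182 CPM in UWOPS05_217_3 and 288 and 325 CPM in CBS432 (log2 difference -0.85, SE 0.10, adjusted p = 0.00032), both higher in CBS432. Of 26 cyclins and G1 regulators, 5 (19.2%) and 7 (26.9%) were called in the 2 directions, beside 28.2% and 26.4% over all genes. Fewer were called without CBS432 replicate 2. RNR4, the small subunit of ribonucleotide reductase, was higher in CBS432 (239 and 249 against 504 and 485 CPM, log2 difference -1.02, SE 0.09, adjusted p = 7e-05), and ORC4, of the origin recognition complex, in UWOPS05_217_3 (94.6 and 80.3 against 40.9 and 43.3 CPM, log2 difference 1.05, SE 0.11, adjusted p = 0.00018).

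The size of the differences depended on level more than the share of calls did. Among the 1249 genes with the lowest mean CPM, 53.6% were called and 24.7% were called at 2-fold or more. Among the 1249 with the highest the corresponding shares were 50.8% and 4.88%. Among the most abundant genes per kilobase, the wall protein genes NCW1 (869.6 and 964 against 557 and 606 CPM, log2 difference 0.66, SE 0.11, adjusted p = 0.0013) and GAS1 (5199.5 and 5856 against 3971 and 4409.5 CPM, log2 difference 0.40) were higher in UWOPS05_217_3, the latter with a call that was lost without any of 3 libraries (all but CBS432 replicate 2). HOR7, a small osmotic response protein, was also higher there (687 and 648 against 301 and 212 CPM, log2 difference 1.38, SE 0.16, adjusted p = 0.00023). The abundant ZEO1 (1541 and 1532 against 1289 and 1359 CPM, adjusted p = 0.12) and RPS12 (1724 and 1573 against 2152 and 1404 CPM, adjusted p = 0.65) were not called.

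Along the chromosomes the median difference stayed between -0.04 (chromosome XVI) and 0.09 (chromosome I) on the log2 scale, and between 48.9% (IX) and 58.5% (VII) of genes were called. Genes within 30 kb of a chromosome end, 156 in the tables, were called as often as the rest (53.8%), but 39 of them (25%) at 2-fold or more, against 12.4% of 1038 genes at 30 to 100 kb and 11.1% of 3801 farther inside. The families that fill chromosome ends were nearly absent from the tables, with 1 of 43 listed genes measured, COS10 (11.2 and 8.39 against 28.3 and 24.5 CPM, log2 difference -1.43, SE 0.19, adjusted p = 0.00053).

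The hybrid of these strains carries both alleles in 1 cell, and none of its 2 RNA libraries is among those of the haploids. Of the 2727 called genes, 2315 (84.9%) had an allele ratio of the same sign in both hybrid libraries and 210 of the opposite sign in both. Over all 4995 genes, 2067 had a ratio above 0 and 2337 below 0 in both hybrid libraries. The share of the same sign among genes not called is not given here. Haploid and hybrid reads were mapped to the same strain genomes, and a mapping bias common to both was not tested. Across all 4995 genes, the haploid log2 difference and the mean hybrid log2 ratio had a Pearson's r of 0.77, as a description over genes that share libraries. Genes called higher in UWOPS05_217_3 had a median of 0.60 in the haploids and 0.37 in the hybrid, and those higher in CBS432 had -0.57 and -0.44.

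The groups described above had hybrid ratios of quite different size. Trehalose and glycogen genes, at a median of 0.90 in the haploids, had medians of 0.01 and 0.16 in the 2 hybrid libraries, and for TSL1 the allele ratios were -0.25 and 0.05. Purine genes went from 0.84 to -0.02 and -0.03, and ADE17 to 0.37 and 0.09. Ribosome biogenesis factors went from -0.43 to -0.05 and -0.07, and mitochondrial ribosomal proteins from -0.38 to -0.04 and -0.08. In these groups the median allele ratios in the hybrid were close to 0.

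Arginine genes kept medians of -0.26 and -0.38 beside -0.64, and the vacuolar ATPase 0.18 and 0.20 beside 0.30. Single genes that kept most of their difference included KTD1 (4.95 and 5.11), MRPS5 (-1.04 and -1.11), MDH3 (1.74 and 1.72) and PST1 (-2.19 and -2.25). MRPL28, a mitochondrial ribosomal protein gene like MRPS5, also kept its difference (-1.10 and -1.15). The hybrid medians of that list were close to 0, with 20 of 59 genes above 0 and 30 below 0 in both hybrid libraries. MET3 had 0.63 and 0.47 beside its haploid 3.51, and ZPS1 had the opposite sign, 0.35 and 0.84, as did YLL053C (1.47 and 0.72). The difference between haploid and hybrid values was not tested here.

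**Figure D5:**
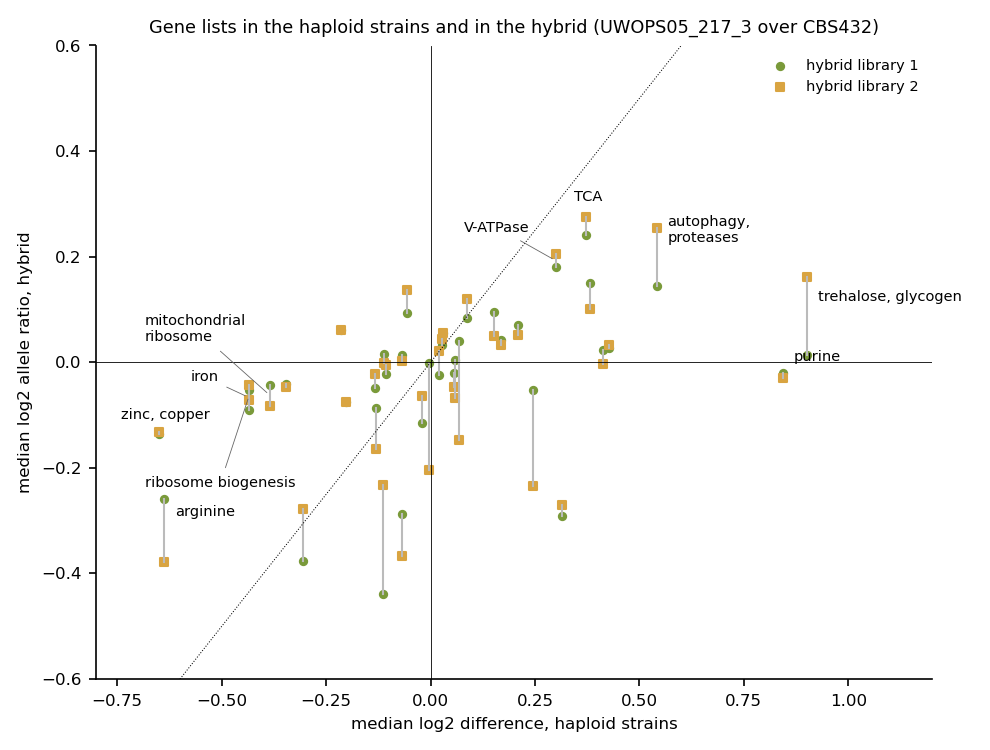
Median log2 difference between the haploid strains (x axis, UWOPS05_217_3 minus CBS432) against the median log2 allele ratio in the hybrid (y axis, UWOPS05_217_3 over CBS432) for each list of at least 13 genes; circles and squares are the 2 hybrid libraries, joined by a line, and the dotted diagonal marks equal values. Trehalose and glycogen genes and purine genes lie near 0.90 and 0.84 on the x axis and close to 0 on the y axis.

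FAIRE counts of the same haploid cultures were available for 3498 nucleosome-free regions (NFRs), the open stretches upstream of genes, and 712 of them (20.4%) were called by the same test. For the 3641 genes with an NFR within 300 bp of the start, an NFR was called for 19.9% of genes called in RNA and 20.8% of the others. Where both were called, 220 of 392 genes (56.1%) had the same sign. MET10 had the more open NFR in the strain with more RNA (NFR log2 difference 2.72, adjusted p = 7.4e-06), as did KTD1 (1.86, adjusted p = 0.00037) and, toward CBS432, ZPS1 (-2.04) and OYE3 (-1.57). SIT1 had the opposite, with an NFR more open in UWOPS05_217_3 (2.14, adjusted p = 0.011) and RNA higher in CBS432. The called NFRs of COX5B (1.36) and ARG3 (1.18) were likewise opposite to their RNA, as was that of OPI3 (-2.84), whose RNA was higher in UWOPS05_217_3. Across the 3641 genes, the RNA and NFR log2 differences had a Pearson's r of 0.06.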

How the data were processed

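Per the paper and the labels, RNA libraries were made with the Illumina TruSeq RNA kit, and reads were mapped with BWA to a genome of each strain (hybrid reads to both together). Aligner versions are not given in the sources used here. The authors summed whole-number counts per gene or NFR, without normalization, leaving out sites called as indels, and deposited 1 table per library (per allele for hybrids). The labels name the build sacCer3. Of 4995 genes, 4597 matched the RefSeq R64 table, which gave their names, and 821 overlapped another gene model.

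Haploid libraries were compared in edgeR 4.0.16 (R 4.3.3; limma 3.58.1) with TMM normalization, a mean count of at least 10, which removed no gene, and Benjamini-Hochberg adjustment over all genes at 0.05. DESeq2 1.42.0, other scalings, filters and thresholds, a replicate block and each left-out library were alternatives. FAIRE counts were tested likewise. Hybrid ratios used a pseudocount of 0.5. Scripts ran in Python 3.11.15 (matplotlib 3.10.9, scipy 1.17.1, pandas 2.3.3, numpy 2.4.6), and the test was tried on simulated counts.

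The genes, lists and comparisons were chosen with earlier results of these data known. Named genes are the 12 with the largest difference in each direction (mean count of at least 100, 4 pairings in 1 direction), the 2 largest called in each direction of every list, all mating genes and factors, and the 5 most abundant per kilobase in each strain. No gene lacked counts in a strain. RNA levels per cell are unknown: all differences are relative to the total. P-values measure the spread between 2 cultures of 1 strain each. Sequences were not used here.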

Additional observations from a re-analysis of the deposited data

How the results depend on the processing

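The count of 2727 genes and both directions stayed within 1.5 times under 11 of the alternatives for tool, scaling, filter, adjusted p (1886 at 0.01) and left-out library, as well as with only the 4174 genes that overlap no other gene model, an alternative chosen after seeing the data (2310 called). DESeq2 called 2864, of which 2698 were shared. Tests for size moved the count: glmTreat against a fold of 1.5 called 702 genes, 386 higher in UWOPS05_217_3 and 316 in CBS432 (55.0% toward UWOPS05_217_3), and 589 calls were of at least 2-fold, 318 and 271 (54.0%), since both ask for a larger difference. The share of calls toward UWOPS05_217_3 was 51.7%, and 53.6% with normalization by total counts. With 1 library left out, 2167 to 2588 genes were called, 1106 to 1309 higher in UWOPS05_217_3 and 1046 to 1279 in CBS432; the lowest counts came without a CBS432 library.

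A replicate block called 3171 genes, 1619 and 1552. The labels do not say that a number marks a shared day or batch, and with 2 pairs the numbers are only names; deviations of same-numbered libraries had a correlation of 0.27.

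Of 190 called genes among the 211 named by the rule, none changed sign under any alternative. The call was lost in 22 without some library, in 79 against a fold of 1.5 and in 1 by DESeq2. With 2 replicates a strain, precision was limited by their spread, and small differences could be missed.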
